A study of Mus musculus with 20 samples.

Results

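Chemokines are small secreted proteins that direct the movement of leukocytes, and the genes described here are the mouse chemokine ligands and receptors measured in whole liver. They were taken by name: every probe set whose gene symbol begins with Ccl, Cxcl, Xcl, Cx3cl, Ccr, Cxcr, Xcr or Cx3cr followed by a number. This gave 48 genes, 31 ligands and 17 receptors, of 16464 named probe sets in a table of 17306. The livers came from male C57BL/6 mice, 10 weeks old and weighing 21 to 27 g, dosed by oral gavage for 25 days. One group received ethinylestradiol (EE2), a synthetic estrogen used in contraceptives and known to cause cholestasis, at 3.70 mg/kg in sunflower oil, and its vehicle group received sunflower oil alone. Another received chlorpromazine (CPZ), an antipsychotic drug that is also known to cause cholestatic liver injury, at 10 mg/kg in phosphate-buffered saline (PBS), and its vehicle group received PBS alone. Each group holds 5 arrays, 20 in all.

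Chemokines fall into CC, CXC, C and CX3C classes by the spacing of their first cysteines, and they signal through G-protein-coupled receptors on the cells that they attract. Most ligands are induced by inflammatory signals and call in neutrophils, monocytes, eosinophils or lymphocytes, while a few, such as Cxcl12 and Cxcl13, are made constantly and hold cells in tissues or lymphoid follicles. In liver, Kupffer cells, hepatocytes, endothelium, stellate cells and bile duct cells can all make chemokines, and the receptors sit mainly on leukocytes.

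RNA was prepared from the middle portion of the left lateral lobe, labelled with biotin and hybridised to Affymetrix arrays, and each value is a log2 level from robust multi-array averaging (RMA). A difference of 1 is therefore a 2-fold change, and levels of different genes are not compared, since probes differ in brightness. Arrays of 1 group correlated at 0.994 to 0.997 over all 17306 probe sets, and EE2 arrays correlated with all other arrays at 0.969 to 0.980. The hepatocyte marker list averaged 12.27 to 12.43 in EE2 livers, 12.28 to 12.53 in oil livers, 12.29 to 12.44 in CPZ livers and 12.35 to 12.56 in PBS livers, with no marker in the lowest 25% of levels. The labels do not say that the samples of a group came from separate mice, and if they did not, the p-values cover a spread that may be technical. CPZ array 11 stood apart: a list of 14 macrophage and Kupffer cell markers averaged 8.12 there and 7.28 to 7.58 on the other CPZ arrays. Counts with CPZ, and each CPZ difference printed here that moved by over 1.5 times, are also given without it.

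A gene was called changed when its p from limma, adjusted by Benjamini-Hochberg over all 16464 named probe sets, was under 0.05. The lowest 25% of levels, below 3.05 in EE2 livers, 3.15 in oil livers, 3.15 in CPZ livers and 3.14 in PBS livers, was taken as the range where a probe set may carry no signal of its gene. In this range lay 10 genes in all 4 groups, namely Ccl1, Ccl11, Ccl12, Ccr1l1, Ccr3, Ccr8, Ccr9, Cxcl15, Cxcl3 and Cxcl5. A difference with 1 group in that range is called a lower bound below, for the values as deposited and not for other scalings. Above that range in every group lay 25 genes.

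With EE2, 22 of 48 genes (45.8%) were called, close to the share among all named probe sets (45.9%). The direction was uneven, with 14 genes higher (29.2%, against 19.2% of all named probe sets) and 8 lower (16.7%, against 26.7%). A rise of at least 1 on the log2 scale was called in 7 genes (14.6%, against 3.74% of all named probe sets), namely Cxcl14, Ccl24, Ccl6, Ccl5, Cxcl1, Cxcr4 and Ccr1. No gene fell by as much (1.23% of all named probe sets did). The 31 ligands were split, 7 higher and 8 lower, while on the values as deposited 7 of 17 receptors were higher and 0 lower by limma. At an unadjusted p under 0.05, 8 receptors were higher and 0 lower, against 21% and 31.9% of all named probe sets. The EE2 and oil arrays did not overlap for 19 genes (39.6%, against 31.8% of all named probe sets), 12 of them higher with EE2 (25.0%, against 14.6%) and 7 lower (14.6%, against 17.2%). The median difference was -0.01 over the 48 genes, -0.06 over ligands, 0.12 over receptors and -0.07 over all named probe sets. Array medians were higher with EE2 (a group average of 4.60, against 4.44 with oil), and centring every array on its median moved the median difference of all named probe sets to -0.22. The split then became 12 higher (25.0%, against 12.7% of all named probe sets) and 20 lower (41.7%, against 58.5%), and 66.7% of the 48 genes were called, against 71.2% of all named probe sets. For receptors it became 5 higher and 4 lower: Ccr3 and Cxcr5 lost their call, and Ccr4, Ccr9, Ccr1l1 and Cxcr6 were called lower. For ligands it became 7 higher and 16 lower.

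**Figure D1:**
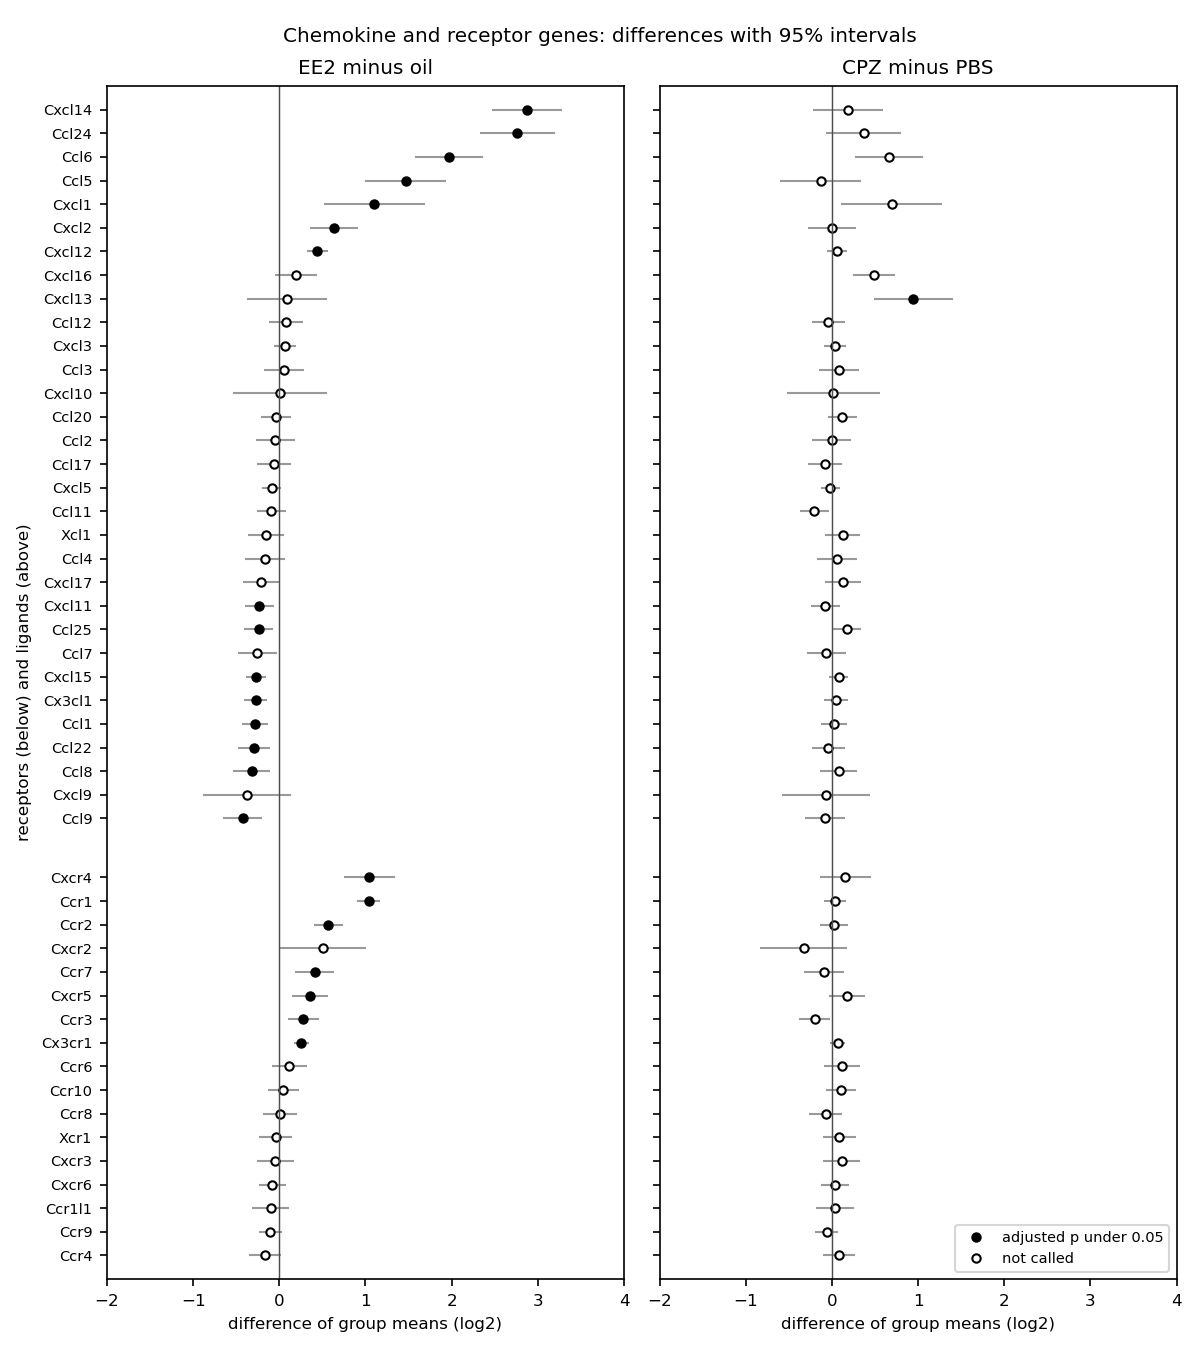
Differences of group means (x axis, log2) with 95% intervals for the 48 genes, receptors below and ligands above, for EE2 minus oil on the left and CPZ minus PBS on the right. With EE2 the rises reach 2.88 (Cxcl14) while no called fall is larger than -0.43 (Ccl9), and with CPZ only Cxcl13 (0.95) was called.

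The largest rises were in ligands outside the neutrophil group. Cxcl14, a chemokine made mainly by epithelia whose receptor is not settled, stood at 5.82, 6.26, 6.29, 6.67 and 6.19 in EE2 livers, against 3.52, 3.32, 3.22, 3.37 and 3.40 in oil livers. Every EE2 array lay above every oil array, a difference of 2.88 (SE 0.20, adjusted p = 1.71e-10) or 7.36-fold. Ccl24 (eotaxin-2), an attractant of eosinophils through Ccr3, stood at 7.38, 7.73, 7.59, 7.72 and 7.42 in EE2 livers, against 4.46, 5.05, 5.05, 4.93 and 4.52 in oil livers. These groups did not overlap either, and they differed by 2.76 (SE 0.21, adjusted p = 9.49e-10) or 6.79-fold.

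Ccl6, a CC chemokine of rodents made by macrophages and other myeloid cells, stood at 8.46, 8.65, 8.97, 8.46 and 8.39 in EE2 livers, against 6.59, 6.65, 6.76, 6.66 and 6.43 in oil livers. The EE2 arrays were all higher, by 1.97 (SE 0.19, adjusted p = 3.38e-08) or 3.92-fold. Ccl9, the closely related rodent ligand that shares the receptor Ccr1 with Ccl6, moved the other way, with 9.88 ± 0.13 in EE2 livers and 10.30 ± 0.15 in oil livers (SD, n = 5 each) and a difference of -0.43 (SE 0.11, adjusted p = 0.00349). Ccl5 (RANTES), made by T cells, NK cells and macrophages and binding Ccr1 and Ccr3, stood at 6.27, 7.15, 6.52, 6.20 and 6.86 in EE2 livers, against 4.84, 4.95, 5.63, 4.91 and 5.34 in oil livers. All EE2 arrays lay above all oil arrays, a difference of 1.47 (SE 0.23, adjusted p = 2.09e-05) or 2.76-fold. In whole liver, more cells of a type cannot be told apart from more RNA per cell, here and for each gene below.

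The 5 genes called at least 1 higher among ligands were joined by 2 receptors. Ccr1, the receptor of Ccl5, Ccl6 and Ccl9 on monocytes, macrophages and neutrophils, stood at 3.58, 3.63, 3.53, 3.77 and 3.94 in EE2 livers, against 2.66, 2.67, 2.68, 2.56 and 2.70 in oil livers. The groups were separated by a wide gap, with a difference of 1.04 (SE 0.06, adjusted p = 3.11e-11) or 2.05-fold, a lower bound because the oil mean lies in the lowest 25%. Cxcr4, the receptor of Cxcl12 on most leukocytes, stood at 3.16, 4.01, 3.53, 3.60 and 4.02 in EE2 livers, against 2.70, 2.62, 2.75, 2.59 and 2.46 in oil livers. It differed without overlap by 1.04 (SE 0.14, adjusted p = 4.25e-06) or 2.06-fold, again a lower bound.

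**Figure D2:**
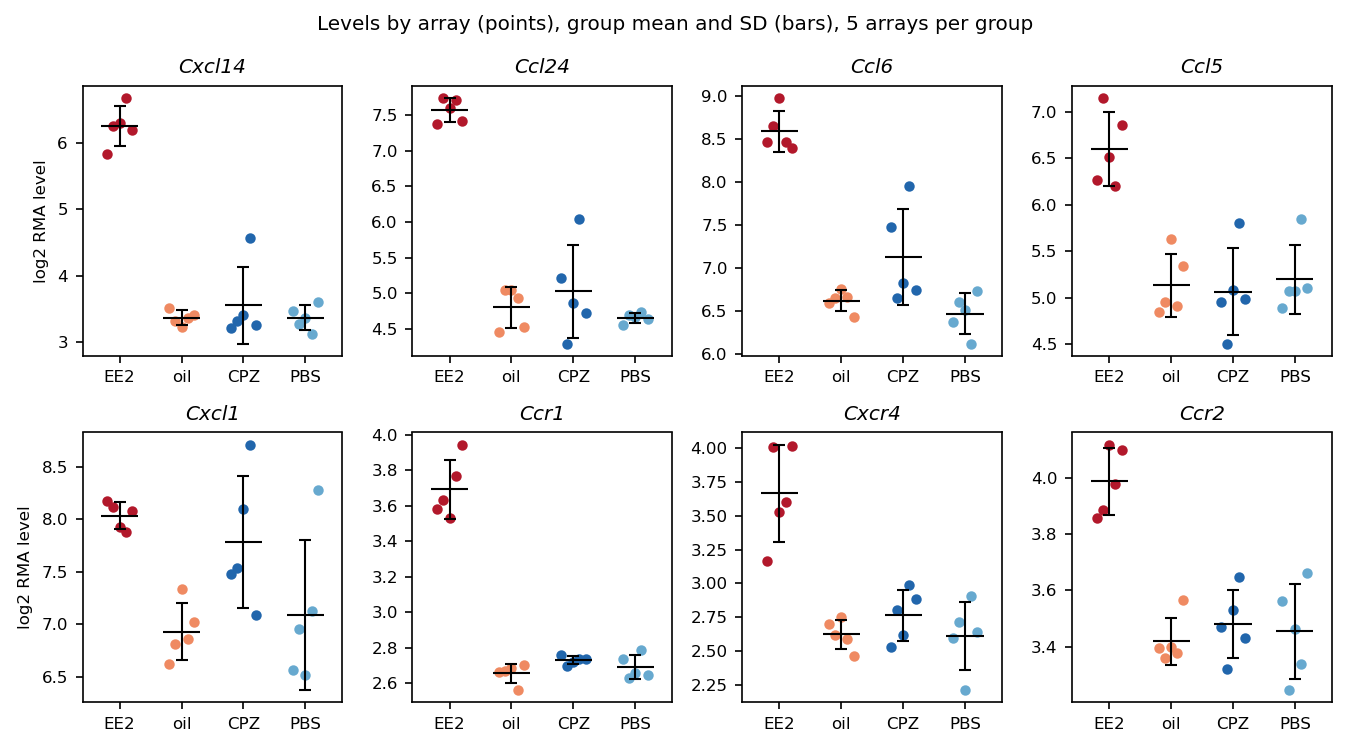
Log2 RMA levels (y axis) on each array (points) with group mean and SD (bars) for Cxcl14, Ccl24, Ccl6, Ccl5, Cxcl1, Ccr1, Cxcr4 and Ccr2, in EE2, oil, CPZ and PBS livers. For each of these 8 genes every EE2 array lies above every oil array, and the CPZ and PBS arrays overlap.

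Cxcl1, Cxcl2, Cxcl3 and Cxcl5 attract neutrophils through Cxcr2. The genes of Cxcl1, Cxcl2 and Cxcl3 lie in 1 cluster on mouse chromosome 5, and their promoters show a match to a motif of NF-kappa B. The windows below are the last 120 bases before the transcription start, from RefSeq on GRCm38.p6, given because these promoters, which share the kappa B stretch, belong to 2 genes that were called higher and 1 that was not. They lie at chr5:90891125-90891244 for Cxcl1, chr5:90903779-90903898 for Cxcl2 and chr5:90785981-90786100 for Cxcl3, all on the plus strand, and the capitals mark the kappa B motif, GGGA and TTCC with any 2 bases between them, as found on either strand (overlapping matches are joined).
Cxcl1: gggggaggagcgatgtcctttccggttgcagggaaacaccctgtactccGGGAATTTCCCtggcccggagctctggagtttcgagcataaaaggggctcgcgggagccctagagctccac
Cxcl2: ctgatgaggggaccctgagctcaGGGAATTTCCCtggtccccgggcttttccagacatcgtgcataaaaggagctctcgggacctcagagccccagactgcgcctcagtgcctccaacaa
Cxcl3: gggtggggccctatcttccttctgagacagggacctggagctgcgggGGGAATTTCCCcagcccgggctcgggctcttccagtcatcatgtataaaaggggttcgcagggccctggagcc
The motif was present in the 250 bases before the start of 1.21% of 32851 mouse promoters, and in 6 of the 35 of these 48 genes with a promoter entry, the other ones being Ccl1, Ccr3 and Cxcl10. Of the 6, 3 were called higher with EE2 (Cxcl1, Cxcl2 and Ccr3) and 1 lower (Ccl1), against 19.2% and 26.7% of all named probe sets. For Ccr3 and Ccl1 the EE2 and oil means lay in the range where a probe set may carry no signal of its gene. After centring, limma did not call Ccr3 (adjusted p = 0.224). A match is a stretch of letters, not a measured binding site.

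Cxcl1 stood at 8.17, 8.12, 7.93, 7.88 and 8.08 in EE2 livers, against 6.62, 6.82, 7.34, 6.86 and 7.02 in oil livers. The EE2 arrays lay above the oil arrays, by 1.10 (SE 0.28, adjusted p = 0.00326) or 2.15-fold. The SE pools all 4 groups, whose SDs were 0.13 in EE2, 0.27 in oil, 0.63 in CPZ and 0.72 in PBS livers. Cxcl2 stood at 3.45, 4.10, 3.19, 3.63 and 3.09 in EE2 livers, against 2.79, 2.83, 3.01, 2.89 and 2.77 in oil livers. It also rose without overlap, by 0.63 (SE 0.13, adjusted p = 6.33e-04), a lower bound. Cxcl3 was in the lowest 25% in every group, with 2.69 ± 0.14 in EE2 livers and 2.63 ± 0.09 in oil livers, as was Cxcl5, with 2.64 ± 0.06 in EE2 livers and 2.73 ± 0.08 in oil livers, and neither was called.

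Their receptor Cxcr2, found mainly on neutrophils, stood at 5.09, 5.93, 5.45, 5.39 and 5.93 in EE2 livers, against 5.44, 4.92, 4.86, 5.30 and 4.76 in oil livers. These arrays overlapped, and the difference of 0.50 (95% interval 0.0016 to 1.01) was not called (adjusted p = 0.0935). In a fit of the 10 EE2 and oil arrays alone it was called with the same difference (adjusted p = 0.0331). Of 10 neutrophil markers 5 were higher and 0 lower with EE2 by limma, against 19.2% and 26.7% of all named probe sets. These counts were the same at an unadjusted p under 0.05. The mean level of the markers was 4.63 to 4.91 in EE2 livers and 3.62 to 3.87 in oil livers. Their median difference was smaller than the gap between these means, at 0.25, and 3 of the 10 are also in another list. After centring 4 of the markers were higher and 1 lower (12.7% and 58.5% of all named probe sets), with a median of 0.09. Their part in the results for these genes was not tested. Cxcl15 (lungkine), a neutrophil attractant of mouse lung epithelium, stood at 2.88, 2.87, 2.76, 2.89 and 2.82 in EE2 livers, against 3.00, 3.13, 3.12, 3.08 and 3.22 in oil livers. It was called lower without overlap, with a difference of -0.27 (SE 0.06, adjusted p = 5.23e-04), but both means lie in the lowest 25%, whose own limit was 3.05 in EE2 livers and 3.15 in oil livers.

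The interferon-inducible ligands Cxcl9, Cxcl10 and Cxcl11 attract activated T and NK cells through Cxcr3. Cxcl10 and Cxcl14 are the only genes of the 35 with a match to the interferon-stimulated response element, GAAA repeated after any 2 bases, which 2.98% of all promoters hold. Their promoters are shown because Cxcl14 was the largest rise with EE2 and Cxcl10 had a difference near 0. The windows are the 250 bases before the start on GRCm38.p6 in RefSeq, chr5:92348890-92349139 and chr13:56296552-56296801, both on the minus strand and written in the direction of transcription. Capitals mark that element in both, the kappa B match in Cxcl10, and the gamma-activated site TTCNNNGAA in Cxcl14, which 7.02% of all promoters and 4 of the 35 genes (Ccl17, Ccr1l1, Ccr6 and Cxcl14) hold.
Cxcl10: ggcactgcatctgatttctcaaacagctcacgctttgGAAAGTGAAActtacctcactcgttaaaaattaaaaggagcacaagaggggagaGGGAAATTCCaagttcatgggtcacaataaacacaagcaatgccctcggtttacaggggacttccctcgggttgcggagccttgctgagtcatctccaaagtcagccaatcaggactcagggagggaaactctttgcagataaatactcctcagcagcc
Cxcl14: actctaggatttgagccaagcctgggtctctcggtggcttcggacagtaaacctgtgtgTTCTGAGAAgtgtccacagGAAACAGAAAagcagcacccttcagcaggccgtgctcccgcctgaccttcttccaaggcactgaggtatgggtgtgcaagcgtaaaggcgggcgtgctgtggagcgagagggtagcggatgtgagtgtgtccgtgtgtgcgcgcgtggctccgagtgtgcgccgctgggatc
The palindromic estrogen response element, GGTCA and TGACC with any 3 bases between them, was found in the 250 bases of 0 of the 35 genes and of 0.0639% of all promoters. All motifs were searched on both strands.

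Cxcl9 stood at 5.96, 6.63, 6.22, 6.18 and 5.95 in EE2 livers, against 6.11, 6.45, 7.32, 6.08 and 6.84 in oil livers. The groups overlapped, and the difference of -0.37 (95% interval -0.88 to 0.14) was not called. Cxcl10 stood at 4.34, 5.49, 4.25, 5.10 and 4.70 in EE2 livers, against 4.41, 4.90, 5.56, 4.12 and 4.85 in oil livers. These groups overlapped too, with a difference of 0.01 (95% interval -0.53 to 0.55). Cxcl11, which C57BL/6 mice do not make as a protein, was called lower, with 3.38 ± 0.13 in EE2 livers and 3.61 ± 0.08 in oil livers and a difference of -0.23 (SE 0.08, adjusted p = 0.0231). That call was lost without EE2 array 9 (adjusted p = 0.0734), oil array 8 (0.0531) or oil array 16 (0.0543), and under quantile normalization (0.116). The receptor Cxcr3 had 3.14 ± 0.11 in EE2 livers and 3.19 ± 0.17 in oil livers and was not called.

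Among the constantly made chemokines, Cxcl12, which holds leukocytes and stem cells in tissues through Cxcr4, stood at 10.05, 10.15, 9.95, 10.07 and 10.12 in EE2 livers, against 9.70, 9.68, 9.60, 9.65 and 9.49 in oil livers. Every EE2 array was higher, by 0.44 (SE 0.06, adjusted p = 2.70e-06), so that this ligand and its receptor both rose. Cxcl13, the attractant of B cells to follicles, stood at 6.36, 5.31, 5.65, 5.36 and 5.47 in EE2 livers, against 5.62, 5.45, 5.87, 5.56 and 5.19 in oil livers. The arrays overlapped, and the difference of 0.09 (95% interval -0.37 to 0.55) was not called. Cxcr5, the receptor of Cxcl13 on B cells, was called higher, with 3.23 ± 0.23 in EE2 livers and 2.87 ± 0.12 in oil livers and a difference of 0.36 (SE 0.10, adjusted p = 0.00545), a lower bound, but not after centring (adjusted p = 0.0642). Ccr7, which guides T cells and dendritic cells to lymph nodes and whose ligands Ccl19 and Ccl21 are not among the 48 genes, stood at 3.46, 4.00, 3.51, 3.71 and 3.49 in EE2 livers, against 3.31, 3.12, 3.31, 3.09 and 3.28 in oil livers. The groups did not overlap, and the difference was 0.41 (SE 0.11, adjusted p = 0.00490).

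Of 7 B and plasma cell markers 6 were higher and 0 lower with EE2 by limma, also at an unadjusted p under 0.05. Their median difference was 0.41, and their mean level was 4.96 to 5.37 in EE2 livers and 4.33 to 4.59 in oil livers. Of 15 T and NK cell markers 8 were higher and 1 lower, with a median difference of 0.23. By limma 19.2% of all named probe sets were higher and 26.7% lower. The mean level of the T and NK cell markers was 3.70 to 4.01 in EE2 livers and 3.39 to 3.50 in oil livers. In every group 1 of these markers was in the lowest 25%. After centring these were 6 higher and 5 lower (12.7% and 58.5% of all named probe sets). Their part in the values of Ccl5, Cxcr5, Ccr7 and Cxcr4 was not tested. Cxcl16, a membrane-bound ligand of macrophages and endothelium, stood at 5.87, 6.26, 6.13, 6.09 and 5.68 in EE2 livers, against 5.80, 5.81, 5.84, 5.90 and 5.71 in oil livers. The arrays overlapped, and the difference of 0.19 (95% interval -0.05 to 0.44) was not called. Its receptor Cxcr6, on NKT and other T cells of the liver, had a difference of -0.08 (-0.24 to 0.08) and was not called either.

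The monocyte ligands and their receptor behaved unequally. Ccl2, the main attractant of inflammatory monocytes, stood at 3.40, 3.59, 3.61, 3.75 and 3.24 in EE2 livers, against 3.62, 3.54, 3.51, 3.38 and 3.77 in oil livers. The 10 arrays overlapped, with a difference of -0.05 (95% interval -0.27 to 0.18) that was not called. Its receptor Ccr2, on inflammatory monocytes, stood at 3.86, 3.89, 4.12, 3.98 and 4.10 in EE2 livers, against 3.39, 3.36, 3.40, 3.38 and 3.57 in oil livers. It rose without overlap, by 0.57 (SE 0.08, adjusted p = 5.18e-06). The other Ccr2 ligands were not called, Ccl12 with 2.67 ± 0.17 in EE2 livers and 2.59 ± 0.10 in oil livers, and Ccl7 with 2.82 ± 0.09 in EE2 livers and 3.07 ± 0.14 in oil livers, all in the lowest 25%. The Ccl7 arrays did not overlap, lower with EE2 (difference -0.25, adjusted p = 0.0664), and in the fit of the 10 arrays alone it was called (adjusted p = 0.0147).

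Cx3cr1, the receptor of patrolling monocytes and some resident macrophages, stood at 3.23, 3.29, 3.24, 3.20 and 3.24 in EE2 livers, against 2.95, 3.00, 2.94, 2.98 and 3.08 in oil livers. It was higher on every EE2 array, by 0.25 (SE 0.04, adjusted p = 4.19e-05), a lower bound on the values as deposited. Over the alternative scalings and fits the difference of Cx3cr1 ran from 0.0985 to 0.34, and limma still called it (adjusted p up to 0.0378). Cx3cl1 (fractalkine), its ligand and a product of endothelium and epithelium, stood at 3.10, 3.13, 2.90, 3.18 and 2.87 in EE2 livers, against 3.27, 3.42, 3.28, 3.20 and 3.40 in oil livers. It moved the other way without overlap, with a difference of -0.27 (SE 0.07, adjusted p = 0.00195), with the EE2 mean in the lowest 25%. Of 14 macrophage and Kupffer cell markers 12 were higher and 0 lower by limma, also at an unadjusted p under 0.05. By limma 19.2% of all named probe sets were higher and 26.7% lower. The macrophage markers had a median difference of 1.49 and a mean level of 8.25 to 8.90 in EE2 livers and 7.14 to 7.41 in oil livers. Of 6 monocyte markers 5 were higher and 0 lower by both measures, with a mean level of 5.85 to 6.16 in EE2 livers and 4.47 to 5.09 in oil livers. Their part in the values of Ccl6, Ccr1, Ccr2 and Cx3cr1 was not tested.

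The remaining ligands and receptors mostly guide eosinophils, regulatory and helper T cells or lymphocytes of mucosa and skin. Ccr3, the eosinophil receptor of Ccl24 and Ccl11, stood at 2.88, 3.05, 2.80, 2.86 and 2.52 in EE2 livers, against 2.75, 2.44, 2.53, 2.62 and 2.40 in oil livers. The arrays overlapped, and it was called higher by 0.28 (SE 0.09, adjusted p = 0.0129), with both means in the lowest 25% and no call after centring (adjusted p = 0.224). Ccl11 (eotaxin) was in the lowest 25% in both groups and was not called (2.54 ± 0.18 in EE2 livers and 2.63 ± 0.07 in oil livers). Ccl8, an eosinophil and T cell attractant that binds Ccr8 in mouse, stood at 3.73, 3.58, 3.49, 3.20 and 3.32 in EE2 livers, against 3.81, 3.86, 3.90, 3.57 and 3.76 in oil livers. The arrays overlapped, the difference was -0.32 (SE 0.10, adjusted p = 0.0160), and the call was lost without EE2 array 17 (adjusted p = 0.0538). Ccl1, the other Ccr8 ligand, stood at 2.70, 2.75, 2.85, 2.86 and 2.80 in EE2 livers, against 3.01, 3.08, 3.16, 3.02 and 3.11 in oil livers. It was lower without overlap, with a difference of -0.29 (SE 0.07, adjusted p = 0.00289), with both means in the lowest 25%, and Ccr8 itself had 2.81 ± 0.06 in EE2 livers and 2.80 ± 0.21 in oil livers and was not called.

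Ccl25, which draws lymphocytes to the small intestine and thymus through Ccr9, stood at 5.13, 5.27, 5.32, 5.42 and 5.38 in EE2 livers, against 5.50, 5.63, 5.51, 5.61 and 5.47 in oil livers. The groups did not overlap, the difference was -0.24 (SE 0.08, adjusted p = 0.0194), and the call was lost without EE2 array 9 (adjusted p = 0.0600). Ccr9 was in the lowest 25% with 2.77 ± 0.07 in EE2 livers and 2.88 ± 0.14 in oil livers. Ccl22, which attracts regulatory T cells through Ccr4, was called lower, with 3.03 ± 0.07 in EE2 livers and 3.32 ± 0.20 in oil livers and a difference of -0.29 (SE 0.09, adjusted p = 0.0110), a lower bound of the fall, and was not called under quantile normalization (adjusted p = 0.0889). Neither Ccl17, the second Ccr4 ligand (difference -0.06, 95% interval -0.26 to 0.13), nor Ccr4 (-0.17, -0.35 to 0.01) was called. Ccr4 was called lower once EE2 array 9 was left out (-0.24, adjusted p = 0.0255).

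The other 9 genes were not called with EE2. They were the macrophage ligands Ccl3 and Ccl4, Ccl20 and its receptor Ccr6, which guide Th17 and B cells, Xcl1 and its receptor Xcr1 of cross-presenting dendritic cells, the skin T cell receptor Ccr10, the mucosal chemokine Cxcl17, and Ccr1l1, a relative of Ccr1. Their differences lay between -0.21 (Cxcl17, 95% interval -0.42 to -0.0027) and 0.12 (Ccr6, -0.09 to 0.32). Cxcl17, with both means in the lowest 25%, was called in the fit of the 10 arrays alone (adjusted p = 0.0454).

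Ligands and receptors were set side by side in 28 pairs written from general knowledge after the values were known. With EE2 both partners were called higher in 5 pairs. These were Ccl6 and Ccr1, Ccl5 and Ccr1, Ccl5 and Ccr3, Ccl24 and Ccr3, and Cxcl12 and Cxcr4. The means of Ccr3 (2.82 in EE2 and 2.55 in oil livers) lay in the range where a probe set may carry no signal. Its arrays overlapped, and after centring limma did not call Ccr3 (adjusted p = 0.224). For single named probe sets, not pairs, limma called 19.2% higher and 26.7% lower. In 2 pairs the ligand was lower and the receptor higher, Ccl9 with Ccr1 and Cx3cl1 with Cx3cr1. The ligand alone was higher in 2 pairs (Cxcl1 and Cxcl2 with Cxcr2) and lower in 5, the receptor alone was higher in 6, and neither was called in 8. Pairs share members, so these counts are a description. With CPZ the ligand alone was called in 1 pair, Cxcl13 with Cxcr5, and neither partner in 27. Without CPZ array 11, 0 of the 48 genes were called, so no pair held a call.

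**Figure D3:**
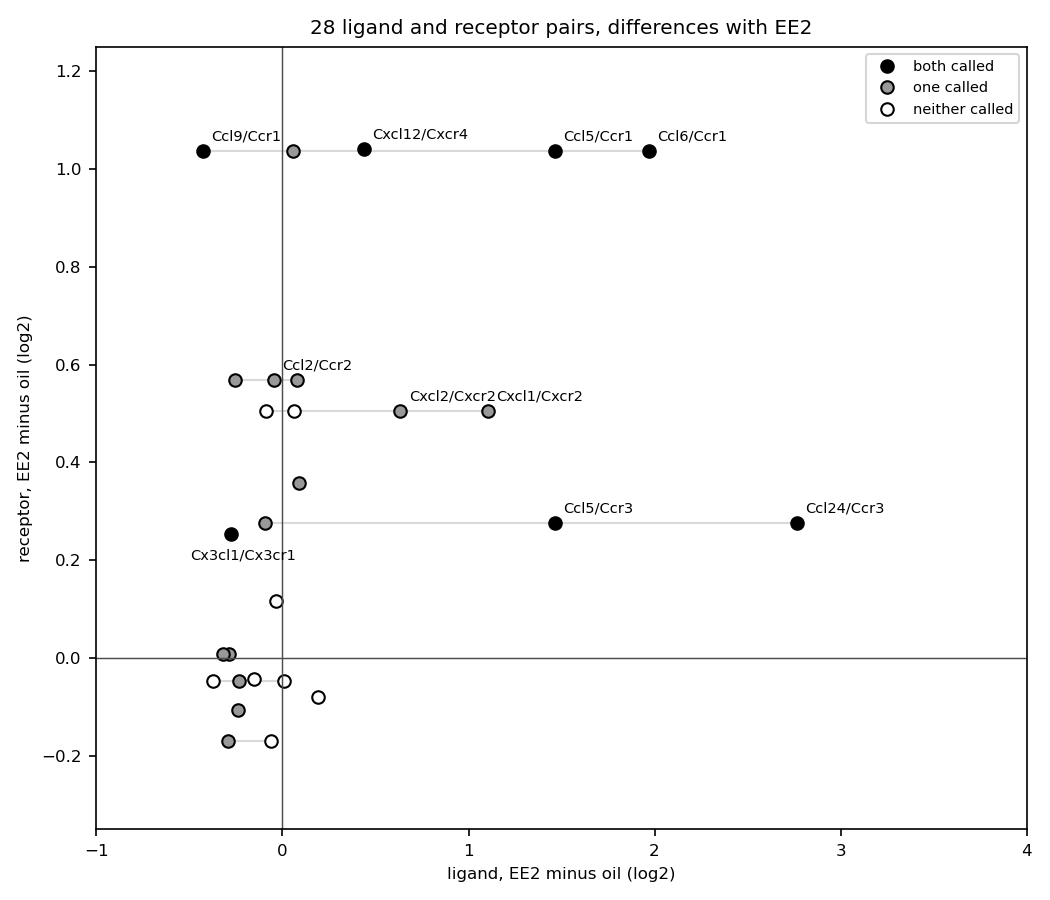
Difference with EE2 (log2, EE2 minus oil) of the ligand (x axis) and of its receptor (y axis) for the 28 pairs, each point 1 pair, black where both partners were called, grey where 1 was and white where neither was, with lines joining pairs of 1 receptor. Ccl24 with Ccr3 and Ccl6 with Ccr1 lie far to the right, and Ccl9 with Ccr1 and Cx3cl1 with Cx3cr1 lie to the upper left of 0. The EE2 and oil means of Ccr3 lie in the range where a probe set may carry no signal of its gene.

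With CPZ, 1 of 48 genes was called (2.08%, against 0.796% of all named probe sets), and the CPZ and PBS arrays did not overlap for 2 genes, both higher with CPZ (4.17%, against 1.57% of all named probe sets for that direction and 2.98% for both). At an unadjusted p under 0.05 there were 7 genes (14.6%, against 12.2%). Without CPZ array 11, limma called 0 genes (0.899% of all named probe sets), and 8 had an unadjusted p under 0.05 (16.7%, against 11.4%). The same 2 genes did not overlap (4.17%, against 2.48% of all named probe sets higher and 2.1% lower). Groups that lie apart stay apart when an array is left out, so these 2 could not have been lost. The called gene was Cxcl13, which stood at 5.90, 6.01, 5.72, 6.65 and 5.80 in CPZ livers, against 4.44, 5.70, 4.92, 4.93 and 5.36 in PBS livers. Every CPZ array lay above every PBS array, a difference of 0.95 (SE 0.22, adjusted p = 0.0482). Without CPZ array 11 it was 0.79 and not called (adjusted p = 0.100), and the call was lost in 8 of 10 fits that each left out 1 CPZ or PBS array (adjusted p of 0.0259 to 0.116 over the 10). The call was lost as well without EE2 array 13, 15, 17 or 18, or oil array 2, 5, 6 or 8, which enter the pooled spread. It was also lost with an intensity trend and robust prior (adjusted p = 0.0541), with array weights (0.0603), under quantile normalization (0.0559) and in the 10 arrays alone (0.119). Cxcl16 also did not overlap, with 5.94, 5.95, 5.91, 6.18 and 5.86 in CPZ livers, against 4.99, 5.57, 5.47, 5.77 and 5.62 in PBS livers. Its difference of 0.49 (SE 0.12) had an adjusted p of 0.0531, and without CPZ array 11 it was 0.43 (adjusted p = 0.115), whereas without PBS array 19 it was 0.56 and called (adjusted p = 0.0370). It was called too with the robust prior (adjusted p = 0.0493), with array weights (0.0375) and under the filter on low levels (0.0419).

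Other values with CPZ were not called. Ccl6 stood at 7.47, 6.65, 6.82, 7.95 and 6.74 in CPZ livers, against 6.37, 6.61, 6.51, 6.12 and 6.73 in PBS livers. The highest PBS array lay above the lowest CPZ array, and the difference of 0.66 (adjusted p = 0.108) was 0.45 without CPZ array 11 (adjusted p = 0.204). Cxcl1 stood at 7.48, 7.54, 8.10, 8.71 and 7.09 in CPZ livers, against 6.56, 6.96, 6.52, 7.13 and 8.28 in PBS livers. Its difference of 0.69 (adjusted p = 0.309) was 0.46 without CPZ array 11 (adjusted p = 0.549) and 0.99, called, without PBS array 20 (adjusted p = 0.0470). Cxcl14 was high on CPZ array 11 alone, with 3.21, 3.31, 3.41, 4.57 and 3.25 in CPZ livers, against 3.47, 3.28, 3.36, 3.12 and 3.61 in PBS livers. Its difference was 0.18, and -0.07 without that array. The remaining genes under an unadjusted p of 0.05 were Ccl25 (0.17), Ccl11 (-0.21) and Ccr3 (-0.20). Of 14 macrophage markers 2 were called higher with CPZ (Cd68 and Adgre1) and 0 lower, against 0.443% and 0.352% of all named probe sets. All 14 were higher at an unadjusted p under 0.05 (6.41% of all named probe sets were). Their mean level was 7.28 to 8.12 in CPZ livers and 6.82 to 7.18 in PBS livers. Oil minus PBS, which shares the PBS arrays, called 0 of the 14 markers. There 3 were higher at an unadjusted p under 0.05 (4.31% of all named probe sets were). The median difference was 0.27 in that comparison and 0.54 with CPZ. With CPZ array 11 left out, 1 marker was called with CPZ and 12 of 14 were higher at that p. Their part in the values of Cxcl13, Cxcl16 and Ccl6 was not tested.

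**Figure D4:**
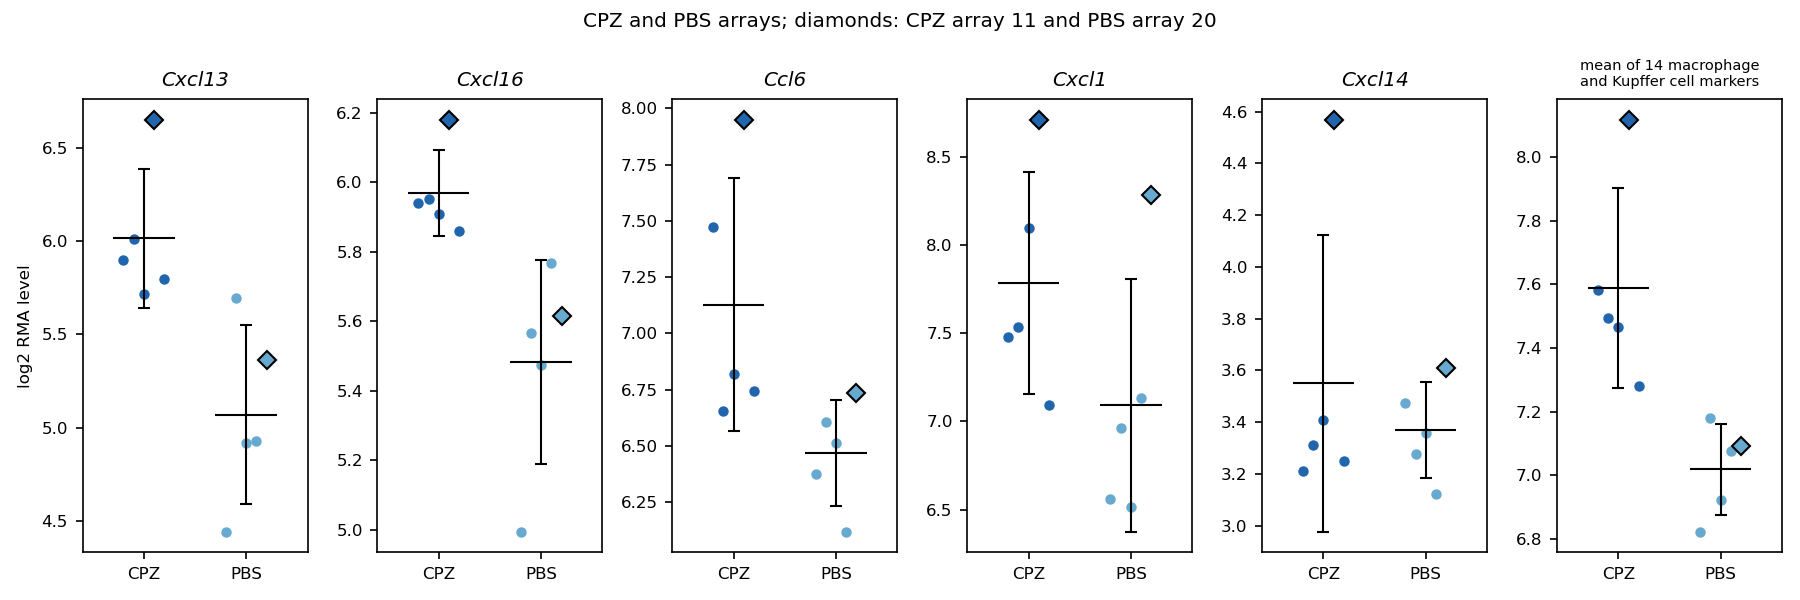
Log2 RMA levels (y axis) on the CPZ and PBS arrays (points, with group mean and SD) for Cxcl13, Cxcl16, Ccl6, Cxcl1 and Cxcl14, and the mean of 14 macrophage and Kupffer cell markers, with CPZ array 11 and PBS array 20 as diamonds. CPZ array 11 is the highest CPZ array in all 6 panels, with 8.12 in the macrophage mean and 4.57 in Cxcl14, and PBS array 20 is the highest PBS array for Cxcl1, at 8.28.

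The ligands that rose most with EE2 were not called with CPZ. Ccl24 stood at 5.22, 4.29, 4.86, 6.03 and 4.73 in CPZ livers, against 4.56, 4.70, 4.67, 4.74 and 4.63 in PBS livers, a difference of 0.37 (95% interval -0.07 to 0.81). For Ccl5 the levels were 4.95, 4.50, 5.08, 5.80 and 4.98 in CPZ livers, against 4.89, 5.07, 5.07, 5.84 and 5.10 in PBS livers, a difference of -0.13 (-0.60 to 0.34). The arrays of both genes overlapped, and without CPZ array 11 the differences were 0.12 for Ccl24 and -0.32 for Ccl5. Cxcl2, the relative of Cxcl1, stood at 3.12, 2.64, 2.89, 2.76 and 2.73 in CPZ livers, against 2.75, 2.80, 2.88, 2.96 and 2.77 in PBS livers, a difference of -0.0035 (-0.28 to 0.28). Cxcr2, the receptor of both, stood at 4.62, 4.59, 5.24, 4.42 and 4.95 in CPZ livers, against 4.44, 4.77, 5.27, 4.91 and 6.08 in PBS livers, a difference of -0.33 (-0.83 to 0.18). Neither gene separated the groups. The difference of Cxcl2 was 0.01 without CPZ array 11.

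Monocyte and T cell attractants also overlapped between CPZ and PBS arrays. Ccl2 stood at 3.64, 3.56, 3.83, 3.79 and 3.24 in CPZ livers, against 3.63, 3.50, 3.49, 3.82 and 3.62 in PBS livers, a difference of -0.0011 (95% interval -0.23 to 0.22). The interferon-inducible Cxcl9 stood at 6.28, 5.67, 6.66, 7.12 and 6.34 in CPZ livers, against 6.29, 6.39, 6.40, 7.09 and 6.27 in PBS livers, a difference of -0.07 (-0.59 to 0.44). In Cxcl9 PBS array 19 stood above the other PBS arrays. Cxcl10 stood at 4.66, 4.27, 4.86, 5.62 and 4.64 in CPZ livers, against 4.71, 4.62, 4.86, 4.94 and 4.83 in PBS livers, a difference of 0.02 (-0.53 to 0.56). Cxcl12 stood at 9.65, 9.46, 9.57, 9.61 and 9.49 in CPZ livers, against 9.49, 9.65, 9.51, 9.40 and 9.44 in PBS livers, a difference of 0.06 (-0.06 to 0.18). Without CPZ array 11 the differences were -0.05 for Ccl2, -0.25 for Cxcl9 and -0.19 for Cxcl10.

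The receptors that rose with EE2 gave these values with CPZ. Cxcr4 stood at 2.53, 2.81, 2.62, 2.98 and 2.89 in CPZ livers, against 2.60, 2.71, 2.21, 2.90 and 2.64 in PBS livers, a difference of 0.15 (95% interval -0.14 to 0.45). Ccr1 stood at 2.76, 2.70, 2.72, 2.73 and 2.74 in CPZ livers, against 2.74, 2.63, 2.66, 2.79 and 2.65 in PBS livers, a difference of 0.04 (-0.09 to 0.17). Both overlapped, with each mean in the lowest 25%. Ccr2 stood at 3.47, 3.32, 3.53, 3.65 and 3.43 in CPZ livers, against 3.56, 3.25, 3.46, 3.34 and 3.66 in PBS livers, a difference of 0.03 (-0.14 to 0.19). Cx3cr1 stood at 3.08, 3.07, 3.00, 3.04 and 3.06 in CPZ livers, against 2.99, 3.00, 3.05, 2.92 and 2.97 in PBS livers, a difference of 0.06 (-0.02 to 0.15). The differences of Cxcr4 and Ccr2 without CPZ array 11 were 0.10 (Cxcr4) and -0.02 (Ccr2). A p that misses the threshold does not show that these genes were unaffected.

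Between the vehicles, oil minus PBS, limma called 0 of 48 genes (0.0486% of all named probe sets were called), and 6 had an unadjusted p under 0.05 (12.5%, against 8.59%). The arrays of the vehicles overlapped for all 48 genes (1.69% of all named probe sets did not overlap). The largest of the 6 differences were Cxcl13 with 5.62, 5.45, 5.87, 5.56 and 5.19 in oil livers and 4.44, 5.70, 4.92, 4.93 and 5.36 in PBS livers, and Cxcl16 with 5.80, 5.81, 5.84, 5.90 and 5.71 in oil livers and 4.99, 5.57, 5.47, 5.77 and 5.62 in PBS livers. They came to 0.47 (adjusted p = 0.575) for Cxcl13 and 0.33 (adjusted p = 0.399) for Cxcl16. The other genes were Ccl11 (-0.19), Cxcl11 (-0.18), Cxcl12 (0.13) and Cxcl15 (0.12).

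The response to EE2 was then compared with the response to CPZ by the difference of the differences, which share no control arrays. It was called in 18 of 48 genes (37.5%, against 31.6% of all named probe sets), 12 with the larger value for EE2 (25.0%, against 14.6%) and 6 with the smaller (12.5%, against 17%). The largest were Cxcl14, with an excess of 2.70 (SE 0.28, adjusted p = 2.39e-07), Ccl24 (2.40), Ccl5 (1.60), Ccl6 (1.31), Ccr1 (1.00) and Cxcr4 (0.89). Cxcl2, Ccr2, Ccr7, Ccr3, Cxcl12 and Cx3cr1 followed with 0.64 to 0.19. Of these, Ccr7 stood at 3.59, 3.18, 3.52, 3.26 and 3.00 in CPZ livers, against 3.23, 3.31, 3.54, 3.51 and 3.41 in PBS livers. Ccr3 stood at 2.49, 2.60, 2.52, 2.51 and 2.30 in CPZ livers, against 2.80, 2.79, 2.61, 2.61 and 2.59 in PBS livers, a difference of -0.20 that was not called. After centring, Ccr7 (0.36, adjusted p = 0.0619) and Cx3cr1 (0.05, adjusted p = 0.441) lost their call. For Cxcl1 the difference of 0.41 was not called (adjusted p = 0.461).

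The 6 genes on the other side were Cxcl13 (-0.85), Ccl25 (-0.41), Ccl8 (-0.40), Cxcl15 (-0.34), Cx3cl1 (-0.32) and Ccl1 (-0.31). With CPZ, Ccl25 stood at 5.34, 5.77, 5.58, 5.47 and 5.80 in CPZ livers, against 5.38, 5.43, 5.30, 5.41 and 5.59 in PBS livers, and Ccl8 at 3.79, 3.95, 4.05, 3.92 and 3.84 in CPZ livers, against 3.72, 4.18, 3.61, 3.88 and 3.75 in PBS livers. Cxcl15 stood at 3.07, 3.08, 3.18, 3.01 and 3.00 in CPZ livers, against 2.99, 2.97, 2.93, 3.15 and 2.91 in PBS livers. These arrays overlapped, as did those of Cx3cl1, at 3.30, 3.31, 3.20, 3.23 and 3.30 in CPZ livers, against 3.35, 3.27, 3.15, 3.11 and 3.24 in PBS livers, and of Ccl1, at 3.24, 2.86, 3.12, 3.18 and 3.22 in CPZ livers, against 3.28, 3.19, 2.99, 2.95 and 3.10 in PBS livers. Cxcl13 lost its call in 14 of 20 fits that each left out 1 array, and Ccl8 in 13 of 20, with adjusted p up to 0.0842 and 0.0834. Without CPZ array 11 the values were -0.70 (adjusted p = 0.0796) for Cxcl13 and -0.39 (adjusted p = 0.0576) for Ccl8, and 17 genes were called. Ccl1 lost its call in 2 of the 20 fits, without PBS array 14 (adjusted p = 0.05001) or PBS array 19 (adjusted p = 0.0504). Under quantile normalization 3 of the 6 lost their call, namely Cx3cl1 (adjusted p = 0.0933), Ccl1 (0.149) and Ccl8 (0.0791), and after centring 15 genes stood on this side.

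Genes that act around the chemokines were counted in lists of general knowledge. Over all named probe sets limma called 19.2% higher and 26.7% lower with EE2, and 12.7% and 58.5% after centring. These shares stand beside each list count with EE2 below. With EE2, 15 of 21 genes of signalling below chemokine receptors were higher and 1 lower. The higher ones with the smallest p were Rgs19 (1.74), a regulator of G-protein signalling, Grk3 (2.52), a kinase that desensitises receptors, and Gnai2 (0.82), the inhibitory G-protein subunit used by chemokine receptors, while Gnai3 was lower (-0.20). The list's median difference was 0.27, against -0.07 over all named probe sets. Of 15 leukocyte adhesion and homing genes 8 were higher and 1 lower (Selp, -0.22), with a median of 0.28, and Selplg (1.33), Cd44 (1.87) and Icam1 (1.84) had the smallest p among the higher ones. Of 23 inducers of chemokine genes 13 were higher and 1 lower, with a median of 0.35. Irf8 (1.41), Tlr4 (0.87) and Rela (0.56) had the smallest p among the higher ones, and Egr1 was lower (-1.35), a call that 7 of 20 fits without 1 array lost. After centring, the counts higher and lower were 10 and 2 for signalling, 7 and 4 for adhesion and 11 and 4 for inducers. Selp lost its call under quantile normalization.

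Proteases that trim or shed chemokines were higher in 7 of 13 genes and lower in 2, with a median of 0.23. Prtn3, the neutrophil and myeloid protease proteinase 3, had the largest value (8.16), ahead of Mmp14 (1.22) and Mmp9 (0.91), while Dpp4, which clips the first residues of several chemokines, fell by 0.50 and Cpn1 by 0.29. In the same list Elane, which is also among the neutrophil markers, and Ctsg were not called. Of 10 atypical receptors and chemokines outside the naming rule, 5 were higher and 3 lower, with a median of 0.20. The platelet chemokines Pf4 (2.05) and Ppbp (1.12) and the chemerin receptor Cmklr1 (0.30) were higher. Rarres2, the chemerin gene, fell by 0.55, and the scavenging receptors Ackr4 by 0.56 and Ackr2 by 0.18, and Ackr2 lost its call in 5 of 20 fits without 1 array. After centring, 3 of these 10 were higher and 4 lower, and Cmklr1 lost its call. Under quantile normalization Ackr2 lost its call. Of 6 platelet and megakaryocyte markers, which include Pf4 and Ppbp, 2 were higher and 0 lower by limma (1 at an unadjusted p under 0.05), and after centring 2 were higher and 2 lower. After centring, 5 of the 13 proteases were higher and 2 lower.

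Among other liver cell types, 2 of 11 endothelial markers were higher and 5 lower with EE2, 3 of 11 stellate cell and fibroblast markers were higher and 3 lower, and 1 of 9 hepatocyte markers was higher and 5 lower. Dendritic cell markers were higher in 1 of 6 and lower in 2, and cholangiocyte markers were higher in 0 of 6 by limma (1 at an unadjusted p under 0.05) and lower in 1. After centring, the counts higher and lower were 0 and 4 for dendritic cell, 0 and 3 for cholangiocyte, 1 and 5 for endothelial, 3 and 3 for stellate cell and 1 and 6 for hepatocyte markers, and 12 and 0 for macrophage, 4 and 0 for monocyte and 5 and 0 for B and plasma cell markers. With CPZ, 4 of 11 endothelial markers were called higher (Clec4g, Stab2, Fcgr2b and Tek) besides the 2 macrophage markers (0.443% of all named probe sets were). At an unadjusted p under 0.05, 9 of the 11 were higher (6.41% of all named probe sets were), with a median difference of 0.27. Without CPZ array 11, 4 of the 11 were called higher and 7 were higher at that p, with a median of 0.29. In that fit 0.899% of all named probe sets were called and 11.4% were under that p, in either direction. Oil minus PBS, which shares the PBS arrays, called 0 of the 11, with a median difference of 0.27. There 8 were higher at an unadjusted p under 0.05 (4.31% of all named probe sets were). In 20 fits without 1 array the call was lost 6 times for Adgre1, 6 for Tek, 4 for Fcgr2b and 3 for Cd68, and without CPZ array 11 it was lost for Adgre1. The other 14 lists held 152 genes, of which limma called 0 (0.796% of all named probe sets were called). An unadjusted p under 0.05 was found for 11 of the 152, and for 12.2% of all named probe sets. Between oil and PBS limma called 0 of the 176 genes of all 16 lists (0.0486% of all named probe sets were called). Of the 176, 19 had an unadjusted p under 0.05, as had 8.59% of all named probe sets.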

How the data were processed

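Liver RNA of 20 samples, 5 in each of the groups EE2, oil, CPZ and PBS, was measured on Affymetrix arrays. The deposited values are log2 levels per probe set, and the authors made them by RMA, per the submitters' processing notes. How probes were grouped, with which version, and which arrays were normalized in 1 run are not given in those notes or labels. Values ran from 1.91 to 14.2 and array medians over all 17306 probe sets from 4.43 to 4.61. They entered the tests as deposited, without rescaling or filtering. Of 17306 probe sets 16464 had 1 gene symbol, 0 had several, and 842 stayed out as unnamed. All 48 symbols match RefSeq. The number of arrays limits the precision.

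A model with 1 mean per group was fitted to the 20 arrays with limma 3.58.1 in R 4.3.3 (functions lmFit, contrasts.fit, then eBayes), which left 16 residual degrees of freedom plus 4.25 from the prior. It gave 4 comparisons: EE2 minus oil, CPZ minus PBS, oil minus PBS, and the difference between the responses to EE2 and to CPZ. Two-sided p-values were adjusted by Benjamini-Hochberg over 16464 probe sets and called under 0.05. No paired analysis was possible because no number is shared between groups. The fit was tested on simulated data.

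The 48 genes and the 16 lists were chosen with earlier results of these data known. Any of the 48 genes may be named. Values on every array are given for genes called with EE2 at a rise or fall of at least 1, genes called in another comparison, genes whose CPZ and PBS arrays do not overlap, and Ccl2, Ccl5, Cxcl1, Cxcl2, Cxcl9, Cxcl10, Cxcl12, Cxcr4, Ccr2, Cx3cr1 and Cxcr2. List genes named with EE2 were those of the 3 smallest p each way, besides Elane and Ctsg, and with CPZ all called list genes were named. Promoters came from RefSeq (GRCm38.p6), which held 35 of the 48. The alternatives were quantile normalization, arrays centred on their median, a filter on the lowest 30% of levels, a robust prior with an intensity trend, weighted arrays, a fit of the compared 10 arrays alone, and leaving out each array.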

Additional observations from a re-analysis of the deposited data

Results flagged for a closer look

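In each group of 5 arrays, the highest and the lowest array were tested for a gap to the nearest other array beyond Dixon's 95% critical value of that gap over the group's whole range. This was met in 12 of 192 combinations of gene and group, and chance alone meets it in about 1 of 20 groups. On CPZ array 11, Cxcl14 was 4.57 against 3.21 to 3.41 on the other 4 CPZ arrays, and Cxcl16 was 6.18 against 5.86 to 5.95 on the other 4. On other CPZ arrays, Ccl3 was 3.32 against 2.95 to 3.05 on the other 4 (CPZ array 4), and Ccl4 was 4.23 against 3.49 to 3.67 on the other 4 (CPZ array 3). On PBS array 19, Ccl5 was 5.84 against 4.89 to 5.10 on the other 4 PBS arrays, and Cxcl9 was 7.09 against 6.27 to 6.40 on the other 4. On PBS array 7, Ccl4 was 4.02 against 3.53 to 3.64 on the other 4 and Cxcl11 was 4.10 against 3.63 to 3.76 on the other 4. Ccl22 was low on PBS array 10, at 3.00 against 3.36 to 3.50 on the other 4. Among EE2 and oil arrays, Ccr1l1 was 3.26 against 2.78 to 2.85 on the other 4 on EE2 array 18, Ccr2 was 3.57 against 3.36 to 3.40 on the other 4 on oil array 16, and Ccr1 was low on oil array 8, at 2.56 against 2.66 to 2.70 on the other 4. Of these, Ccr1 and Ccr2 were called with EE2, and both calls held in all 10 fits without 1 EE2 or oil array.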

How the results depend on the processing

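With EE2, 22 genes were called, 14 higher and 8 lower. A filter on the lowest 30% of levels left 22 of the 48 genes and called 12, 8 higher and 4 lower, since fewer genes were tested. Centred arrays called 20 lower (32 in all, 66.7%, against 71.2% of all named probe sets), quantile normalization 20 in all, and the 10 arrays alone 25. Leaving out 1 array gave 21 to 23 calls, 14 to 15 higher and 7 to 9 lower. Under centring Ccr3 and Cxcr5 lost their call, and under quantile normalization Ccl22 and Cxcl11. With CPZ, the 1 call became 0 under quantile normalization or in the 10 arrays alone, and 2 under the filter. It stayed 1 with the robust prior and with array weights, but Cxcl16 in place of Cxcl13. Leaving out 1 array gave 0 to 2 calls, with 2 without PBS array 20. For oil minus PBS, every alternative called 0. For the difference of responses, 18 calls (12 higher, 6 lower) became 10 (7 and 3) under the filter, with 3 lower under quantile normalization and 15 lower under centring. Leaving out 1 array gave 15 to 20 calls, 12 to 13 of them higher and 3 to 7 lower, with 3 lower without PBS array 14. Except for the filter, the cause was not tested. None of the 48 genes was called in the opposite direction under any of these in any comparison, and no called gene changed sign. With EE2, 717 of 742 values of single genes under these alternatives kept their side of the threshold, 9 lost it and 16 gained it. With CPZ these were 725 of 742, 12 and 5, for oil minus PBS 742 of 742, and for the difference of responses 1116 of 1174, 37 and 21. Signal over background limits the 10 genes in the lowest 25% of levels in all groups.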
